A study of Mus musculus with 12 samples.

Results

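Arginine in a macrophage is shared between nitric oxide synthesis, the arginases and the polyamines, and the genes for 9 enzymes and transporters of that traffic and of itaconate synthesis were followed in bone marrow-derived macrophages (BMDMs) by RNA sequencing. The 9 genes were Nos2, Arg1, Arg2, Slc7a2, Ass1, Asl, Odc1, Gch1 and Acod1, taken by their symbols from a table of 55335 mouse genes, and all 9 symbols were found. The series held 12 libraries in 4 groups of 3: wild-type BMDMs without stimulation, wild-type BMDMs with costimulation, Nlrp3-/- BMDMs without stimulation and Nlrp3-/- BMDMs with costimulation. Costimulation was lipopolysaccharide (LPS), a bacterial cell wall component that primes the NLRP3 inflammasome, followed by ATP, which triggers it through the channel P2X7R. The sample labels give 4 hours of LPS and 30 min of ATP, while the methods of the study describe longer steps for both, so the length of the treatment is uncertain. The study compared these groups to ask which macrophage genes and metabolic processes depend on NLRP3. BMDMs were the adherent cells grown from the marrow of C57BL/6 mice in medium with macrophage colony-stimulating factor. All groups shared this culture, and the Nlrp3-/- mice and the wild-type mice came from different suppliers. The labels do not say whether the replicates came from separate mice or cultures, so the p-values measure only the spread between these libraries, which may be technical.

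SLC7A2 (CAT2) carries arginine across the plasma membrane. NOS2, the inducible nitric oxide synthase, turns arginine into nitric oxide and citrulline with tetrahydrobiopterin as a cofactor, whose synthesis begins with GCH1. ASS1 and then ASL rebuild arginine from citrulline. The arginases ARG1 (cytosolic) and ARG2 (mitochondrial) split arginine into urea and ornithine, and ODC1 turns ornithine into putrescine, the first polyamine. ACOD1 (IRG1) makes itaconate from the Krebs cycle intermediate cis-aconitate. In mouse macrophages Nos2 and Acod1 are textbook genes of the response to LPS, while Arg1 is known as a gene of alternative activation.

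Promoter sequence was at hand for 4 of the 9 genes, Ass1, Gch1, Acod1 and Odc1, and all 4 are shown. With LPS+ATP the first 3 rose and Odc1 did not pass the test. No sequence was at hand for the other genes, of which Nos2, Arg1, Arg2 and Slc7a2 also rose. Whether the motifs bear on the response was not tested. The sequences come from RefSeq on GRCm38.p6 and cover the 150 bases before the annotated start of each gene, read on the strand of the gene. They lie at chr2:31470120-31470269 on the plus strand for Ass1, chr12:17544723-17544872 on the plus strand for Odc1, chr14:47189414-47189563 on the minus strand for Gch1 and chr14:103046862-103047011 on the plus strand for Acod1. Capitals mark an E-box in Ass1, an NF-kB site in Gch1, and in Acod1 a TATA box and, nearer the start, a hypoxia response element.
Ass1: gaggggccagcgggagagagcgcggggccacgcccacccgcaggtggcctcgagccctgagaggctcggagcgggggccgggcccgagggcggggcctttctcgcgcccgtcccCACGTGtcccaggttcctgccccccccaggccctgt
Odc1: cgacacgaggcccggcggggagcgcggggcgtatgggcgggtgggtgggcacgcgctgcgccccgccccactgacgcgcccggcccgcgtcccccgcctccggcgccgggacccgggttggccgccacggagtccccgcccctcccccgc
Gch1: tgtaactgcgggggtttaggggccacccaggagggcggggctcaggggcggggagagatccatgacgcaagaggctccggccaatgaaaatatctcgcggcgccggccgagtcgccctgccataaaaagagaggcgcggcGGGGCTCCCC
Acod1: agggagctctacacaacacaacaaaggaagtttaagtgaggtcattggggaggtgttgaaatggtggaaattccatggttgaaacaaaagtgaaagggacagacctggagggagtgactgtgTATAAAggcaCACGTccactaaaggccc

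The promoters of Odc1 and Ass1 were rich in G and C, at 84.7% and 78.7%, against 67.3% for Gch1 and 46.7% for Acod1. The motifs were searched on both strands of the RefSeq promoter windows of all genes, 32851 in number. The E-box (CACGTG) stood in 7.15% of these windows, the NF-kB site in 8.46%, the TATA box (TATAAA) in 13.6% and the hypoxia response element (ACGTG, which is part of the E-box) in 19.6%. The TATA box of Acod1 ended 23 bases before the start, and a TATA match of Gch1 lay on the other strand, outside the stretch shown. No match to the interferon-stimulated response element, the GAS element (TTCNNNGAA), the STAT6 site, the C/EBP site (TTGCNNAA) or the CRE (TGACGTCA) was found in the windows of these 4 genes, and these stood in 3.44%, 8.30%, 6.95%, 10.8% and 1.79% of all windows. A match describes letters in the window and not binding.

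Expression was given as FPKM, fragments per kilobase of gene scaled to all mapped fragments of the library. Differences were tested with limma on log2(FPKM + 1) over the 12622 genes that reached 1 FPKM in 3 or more libraries. A gene rose or fell where its Benjamini-Hochberg adjusted p was under 0.05, and it was a differentially expressed gene (DEG) where the log2 fold change was also at least 1 in size. On this scale the change of a weakly expressed gene comes out too small. The labels of genotype matched the target: Nlrp3 was between 9.24 and 10.1 FPKM in wild-type BMDMs without stimulation and was listed at 0 in all 6 Nlrp3-/- libraries. Donor sex changed with genotype, since no wild-type library held more than 0.0416 FPKM of Xist while those of Nlrp3-/- BMDMs held 32.8 to 56.3 FPKM, so genotype and sex cannot be told apart. The summed level of 7 macrophage markers, led by Lyz2, was 18977 to 21046 FPKM without stimulation and 10580 to 11335 FPKM with LPS+ATP over both genotypes. In bulk RNA, fewer cells of a type and less RNA per cell cannot be told apart.

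LPS+ATP raised most of these genes in both genotypes. In wild-type BMDMs 7 of the 9 genes (Nos2, Acod1, Slc7a2, Ass1, Arg1, Arg2 and Gch1) were DEGs with higher levels, where 8.25% of all tested genes were higher DEGs and 11.2% lower DEGs. The test was passed by 1 further gene, Asl, in the lower direction, and 23.3% of all tested genes rose and 53.1% fell. In Nlrp3-/- BMDMs 6 of the 9 were higher DEGs, against 6.64% of all tested genes, while 8.21% were lower DEGs. There Arg1 also rose and Asl fell, as did 20.6% and 53.8% of all tested genes. Arg1 was the gene that met the limit in wild-type and not in Nlrp3-/- BMDMs. The median log2 fold change of the 9 genes was 3.03 in wild-type and 2.57 in Nlrp3-/- BMDMs, beside medians of -0.26 and -0.24 over all tested genes. Of the 9 genes, 8 were at 1 FPKM or more in every library. Nos2 passed the filter through the stimulated libraries.

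**Figure D1:**
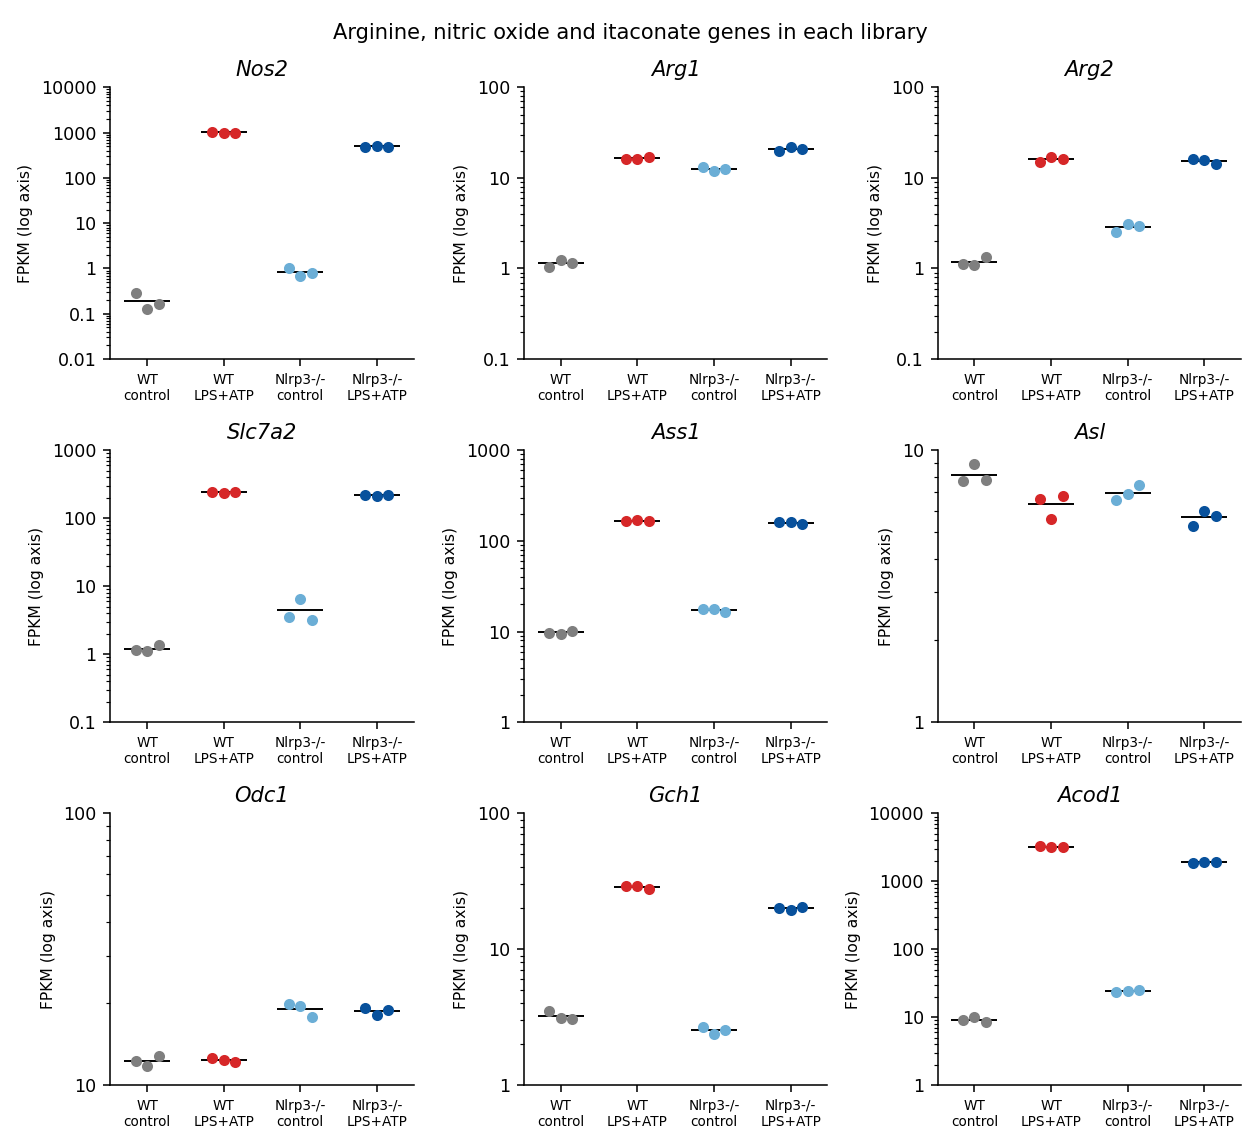
FPKM of each of the 9 genes on a log axis in the 4 groups, with a point per library and a line at the mean of the 3 libraries. Nos2 and Acod1 spanned the widest range, from 0.127 to 1020.1 FPKM and from 8.47 to 3268 FPKM, while Asl stayed between 5.27 and 8.91 FPKM.

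The nitric oxide synthase gene was close to silent without stimulation. Nos2 (ENSMUSG00000020826, chromosome 11) was 0.281, 0.127 and 0.166 FPKM in the wild-type libraries without stimulation and 1.02, 0.692 and 0.813 FPKM in the Nlrp3-/- libraries without stimulation. With LPS+ATP it was 1020.1, 990.3 and 1003 FPKM in wild-type and 487, 504 and 490.1 FPKM in Nlrp3-/- BMDMs. The 4 groups did not overlap, and the order of the genotypes without stimulation was the opposite of that with LPS+ATP. The log2 fold change with LPS+ATP was 9.72 (SE 0.0630, limma adjusted p = 5.27e-16) in wild-type and 8.07 (adjusted p = 1.89e-15) in Nlrp3-/- BMDMs. The ratios of the mean FPKM were 5253 and 586, and they rest on unstimulated levels of 1.02 FPKM or less. By mean FPKM, Nos2 moved from rank 15071 to rank 27 of 55335 genes in wild-type BMDMs and from rank 12478 to rank 68 in Nlrp3-/- BMDMs.

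Between genotypes, stimulated Nlrp3-/- BMDMs held less Nos2 mRNA, 494 ± 8.82 FPKM (SD, n = 3) against 1004 ± 14.98 FPKM (SD, n = 3). The wild-type mean was 2.04 times the Nlrp3-/- mean, with a log2 fold change of -1.02 (95% interval -1.16 to -0.89, limma adjusted p = 1.66e-07). Nos2 was the only one of the 9 genes that was a DEG between genotypes with LPS+ATP, and its interval crosses the limit for a DEG. Without stimulation Nos2 was higher in Nlrp3-/- BMDMs, with a log2 fold change of 0.63 (adjusted p = 7.72e-06). That value grew to 1.71 with a pseudocount of 0.1 in place of 1.

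Gch1 (ENSMUSG00000037580, chromosome 14) encodes GTP cyclohydrolase, which starts the synthesis of the NOS2 cofactor. It was 3.54, 3.12 and 3.07 FPKM in wild-type and 2.66, 2.39 and 2.55 FPKM in Nlrp3-/- libraries without stimulation. With LPS+ATP it was 29.3, 29.2 and 27.8 FPKM in wild-type and 20.2, 19.6 and 20.3 FPKM in Nlrp3-/- BMDMs. Gch1 was lower in Nlrp3-/- BMDMs in both states, with no overlap of libraries. It rose by 2.81 on the log2 scale (SE 0.0505, limma adjusted p = 9.62e-13) in wild-type and by 2.57 (adjusted p = 2.58e-12) in Nlrp3-/- BMDMs. The genotype difference was -0.26 (adjusted p = 0.00125) without stimulation and -0.50 (adjusted p = 8.92e-06) with LPS+ATP. In the gene annotation Gch1 overlaps a processed pseudogene on each strand.

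The arginine transporter gene Slc7a2 (ENSMUSG00000031596, chromosome 8) was 1.14, 1.10 and 1.37 FPKM in the wild-type libraries without stimulation. The Nlrp3-/- libraries without stimulation held 3.55, 6.55 and 3.22 FPKM, so replicate 2 stood above the other two. With LPS+ATP it was 243, 235 and 242 FPKM in wild-type and 219.7, 215 and 220.5 FPKM in Nlrp3-/- BMDMs. Slc7a2 rose by 6.77 on the log2 scale (SE 0.167, limma adjusted p = 1.28e-11) in wild-type and by 5.39 (adjusted p = 1.25e-10) in Nlrp3-/- BMDMs. Without stimulation it was a DEG, higher in Nlrp3-/- BMDMs by 1.25 (adjusted p = 7.90e-05). Without replicate 2 of the Nlrp3-/- group this difference was 0.99 (adjusted p = 2.54e-07), below the limit for a DEG. With LPS+ATP the genotype difference of -0.13 did not pass the test (95% interval -0.50 to 0.23, adjusted p = 0.547). The stimulated libraries of the genotypes did not overlap, and the difference passed when only the compared groups entered the fit (adjusted p = 0.00327).

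The enzymes that rebuild arginine from citrulline did not move together. Ass1 (ENSMUSG00000076441, chromosome 2) was 9.68, 9.49 and 10.3 FPKM in wild-type and 17.7, 17.9 and 16.6 FPKM in Nlrp3-/- libraries without stimulation. After LPS+ATP the level was 165, 169.7 and 168 FPKM in wild-type and 161, 159.9 and 154 FPKM in Nlrp3-/- BMDMs. Stimulation set the groups far apart, and the genotypes lay close together once stimulated. Ass1 rose by 3.96 on the log2 scale (SE 0.0379, limma adjusted p = 7.95e-15) in wild-type and by 3.12 (adjusted p = 5.36e-14) in Nlrp3-/- BMDMs. It was higher in Nlrp3-/- BMDMs without stimulation by 0.77 (adjusted p = 2.25e-08). With LPS+ATP the difference of -0.08 did not pass the test (95% interval -0.16 to 0.00, adjusted p = 0.109), though it passed with median-ratio scaling (-0.27, adjusted p = 0.000141). The level of Ass1 is uncertain, since the copy Gm5424 matched 73.1% of the Ass1 transcript at 99.5% identity and reads could be split between them. Gm5424 was listed at 2.20 to 2.97 FPKM in wild-type BMDMs without stimulation and at 39.0 to 42.8 FPKM with LPS+ATP.

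Asl (ENSMUSG00000025533, chromosome 5), the next enzyme of that route, was 7.71, 8.91 and 7.80 FPKM in wild-type libraries without stimulation and 6.60, 5.60 and 6.81 FPKM with LPS+ATP. The Nlrp3-/- levels were 6.59, 6.90 and 7.48 FPKM without stimulation and 5.27, 5.99 and 5.73 FPKM with LPS+ATP. Within each genotype the stimulated libraries were below the unstimulated ones. Between genotypes the stimulated groups overlapped and the unstimulated groups did not. The log2 fold change was -0.32 (SE 0.0781, limma adjusted p = 0.00312) in wild-type and -0.26 (adjusted p = 0.0104) in Nlrp3-/- BMDMs, close to the medians over all tested genes. Under median-ratio scaling, which brings those medians to about 0, the changes of Asl were -0.03 (adjusted p = 0.757) and -0.01 (adjusted p = 0.932). Neither genotype difference of Asl passed the test (adjusted p = 0.0631 and 0.177). Under median-ratio scaling both passed, at -0.325 (adjusted p = 0.00520) without stimulation and -0.305 (adjusted p = 0.00714) with LPS+ATP. The ratio of Ass1 to Asl FPKM was 1.21 ± 0.131 (SD, n = 3) in wild-type BMDMs without stimulation and 26.6 ± 3.16 (SD, n = 3) with LPS+ATP. The same ratio in Nlrp3-/- BMDMs was 2.50 ± 0.247 (SD, n = 3) and 28.1 ± 2.19 (SD, n = 3).

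**Figure D2:**
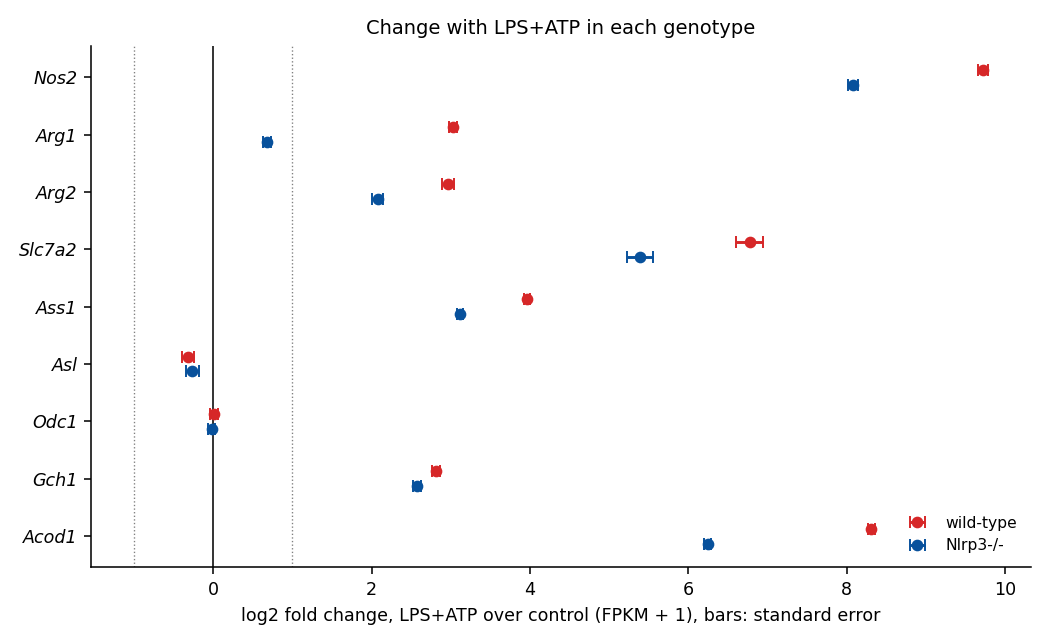
Log2 fold change of LPS+ATP over control for the 9 genes in wild-type (red) and Nlrp3-/- (blue) BMDMs, with bars of 1 standard error and dotted lines at the limit for a DEG. The wild-type point lies to the right of the Nlrp3-/- point for the 7 genes that rose, by the widest gap for Arg1 (3.03 against 0.68).

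Arg1 (ENSMUSG00000019987, chromosome 10) differed most between genotypes without stimulation. It was 1.05, 1.23 and 1.14 FPKM in the wild-type libraries and 13.3, 11.9 and 12.6 FPKM in the Nlrp3-/- libraries. After LPS+ATP the level was 16.3, 16.1 and 16.9 FPKM in wild-type and 19.8, 21.8 and 21.01 FPKM in Nlrp3-/- BMDMs. The 4 groups did not overlap, and the unstimulated Nlrp3-/- libraries already stood near the stimulated wild-type level. The mean without stimulation was 11.1 times higher in Nlrp3-/- BMDMs, with a log2 fold change of 2.67 (SE 0.0520, limma adjusted p = 1.57e-11). With LPS+ATP the difference was 0.33 (adjusted p = 0.000325), and 0.15 under median-ratio scaling. Arg1 rose by 3.03 on the log2 scale (adjusted p = 6.62e-13) in wild-type and by 0.68 (adjusted p = 3.34e-07) in Nlrp3-/- BMDMs.

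The mitochondrial arginase gene Arg2 (ENSMUSG00000021125, chromosome 12) was 1.11, 1.09 and 1.33 FPKM in wild-type and 2.54, 3.10 and 2.98 FPKM in Nlrp3-/- libraries without stimulation. After LPS+ATP the level was 14.96, 17.0 and 16.2 FPKM in wild-type and 16.1, 15.6 and 14.3 FPKM in Nlrp3-/- BMDMs. The genotypes overlapped when stimulated and stood apart when not. Arg2 rose by 2.97 on the log2 scale (SE 0.0736, limma adjusted p = 1.37e-11) in wild-type and by 2.08 (adjusted p = 4.21e-10) in Nlrp3-/- BMDMs. Between genotypes the difference was 0.83 (adjusted p = 2.78e-06) without stimulation and -0.06 (95% interval -0.23 to 0.10, adjusted p = 0.525) with LPS+ATP. In the annotation Arg2 overlaps Vti1b and the antisense gene Gm48780 on the other strand, and Slc7a2 overlaps the noncoding Gm26584 on the other strand. The sources used here do not say whether the counting used strand, so reads of these neighbours cannot be told apart.

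Arg1 and Arg2 shared the arginase mRNA about equally in wild-type BMDMs. Arg1 made up 49.1% ± 3.55 (SD, n = 3) of the summed FPKM of both arginases without stimulation and 50.6% ± 1.74 (SD, n = 3) with LPS+ATP. In Nlrp3-/- BMDMs the share of Arg1 was 81.4% ± 2.33 (SD, n = 3) without stimulation and 57.6% ± 2.27 (SD, n = 3) with LPS+ATP. The summed FPKM of both arginases was 2.31 in wild-type and 15.5 in Nlrp3-/- BMDMs without stimulation, and 32.5 and 36.2 with LPS+ATP. The ratio of Nos2 to both arginases was at most 0.130 in all 6 unstimulated libraries. With LPS+ATP this ratio was 31.0 ± 1.48 (SD, n = 3) in wild-type and 13.6 ± 0.215 (SD, n = 3) in Nlrp3-/- BMDMs. Stimulated Nlrp3-/- BMDMs thus had a lower ratio than stimulated wild-type BMDMs in every library. These ratios describe mRNA per length and carry no test.

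**Figure D3:**
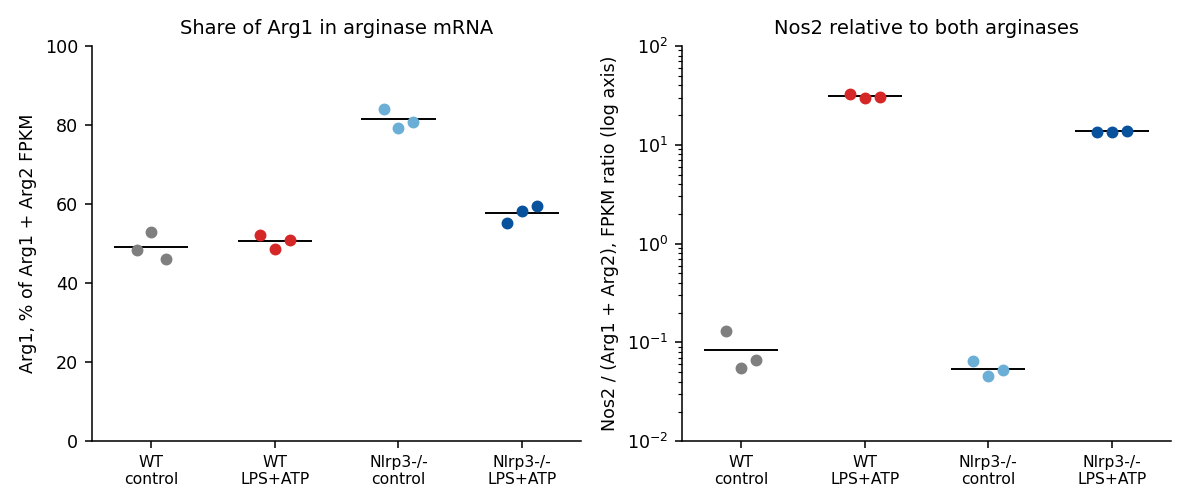
Left, Arg1 as a percentage of the summed Arg1 and Arg2 FPKM, and right, the FPKM ratio of Nos2 to both arginases on a log axis, with a point per library and a line at the mean of 3. The share of Arg1 stands apart in the unstimulated Nlrp3-/- libraries (79.4% to 83.9%), and the Nos2 ratio separates the stimulated genotypes.

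Odc1 (ENSMUSG00000011179, chromosome 12), the entry to the polyamines, followed genotype rather than stimulation. It was 12.2, 11.8 and 12.8 FPKM in wild-type libraries without stimulation and 12.6, 12.4 and 12.2 FPKM with LPS+ATP. The Nlrp3-/- levels were 19.8, 19.5 and 17.9 FPKM without stimulation and 19.3, 18.2 and 18.9 FPKM with LPS+ATP. The Nlrp3-/- libraries were above the wild-type libraries in both states, and the states overlapped within each genotype. The genotype difference was 0.60 (SE 0.0468, limma adjusted p = 9.52e-07) without stimulation and 0.56 (adjusted p = 1.89e-06) with LPS+ATP. The change with LPS+ATP was 0.01 (95% interval -0.09 to 0.12, adjusted p = 0.800) in wild-type and -0.02 (95% interval -0.12 to 0.08, adjusted p = 0.707) in Nlrp3-/- BMDMs. Relative to the median of all genes Odc1 was higher after stimulation, by 0.32 in wild-type (adjusted p = 7.44e-05) and 0.26 in Nlrp3-/- BMDMs (adjusted p = 0.000480) under median-ratio scaling. The 6 near copies of Odc1 were each listed at 1.42 FPKM or less.

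Acod1 (ENSMUSG00000022126, chromosome 14), the itaconate synthase gene, had the highest level of the 9 genes with LPS+ATP. It was 8.98, 9.95 and 8.47 FPKM in wild-type and 23.4, 24.3 and 24.9 FPKM in Nlrp3-/- libraries without stimulation. The stimulated libraries held 3268, 3195 and 3154 FPKM in wild-type and 1889, 1915 and 1904 FPKM in Nlrp3-/- BMDMs. As for Nos2, the groups did not overlap and the order of the genotypes without stimulation was the opposite of that with LPS+ATP. The log2 fold change with LPS+ATP was 8.31 (SE 0.0457, limma adjusted p = 2.13e-16) in wild-type and 6.24 (adjusted p = 1.76e-15) in Nlrp3-/- BMDMs, or 351-fold and 78.7-fold by the means. Between genotypes the difference was 1.32 (adjusted p = 1.26e-09) without stimulation and -0.75 (adjusted p = 1.49e-07) with LPS+ATP. Acod1 ranked 9 of 55335 genes by mean FPKM in stimulated wild-type BMDMs and 10 in stimulated Nlrp3-/- BMDMs.

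Set side by side, the genotype comparison without stimulation had 3 of the 9 genes (Arg1, Acod1 and Slc7a2) as DEGs higher in Nlrp3-/- BMDMs, against 6.02% of all tested genes, while 0.689% were lower DEGs. At the adjusted p alone 7 genes were higher (33.3% of all tested genes) and 1, Gch1, was lower (14.5%). Asl was lower as well under median-ratio scaling. With LPS+ATP, Nos2 was the 1 lower DEG, against 0.570% of all tested genes, while 4.48% were higher DEGs. At the adjusted p alone Nos2, Acod1 and Gch1 were lower (12.6%), Arg1 and Odc1 were higher (35.9%), and 4 genes did not pass. Under median-ratio scaling Arg2, Ass1 and Asl were lower as well. The median log2 fold change of the 9 genes was 0.77 without stimulation and -0.13 with LPS+ATP, beside 0.09 and 0.11 over all tested genes.

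**Figure D4:**
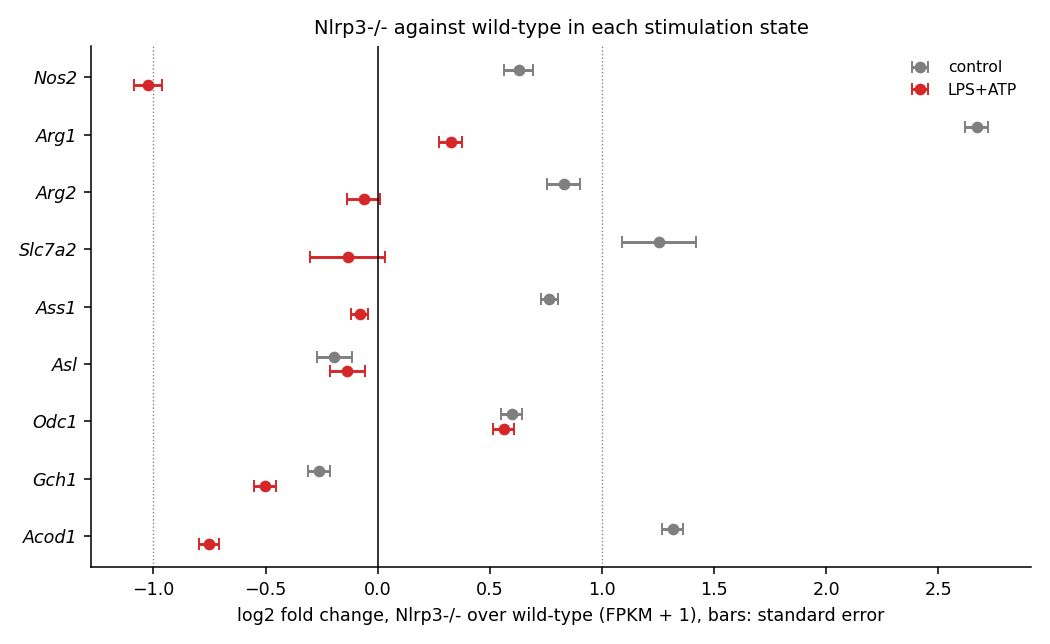
Log2 fold change of Nlrp3-/- over wild-type for the 9 genes without stimulation (grey) and with LPS+ATP (red), with bars of 1 standard error and dotted lines at the limit for a DEG. Nos2 and Acod1 lie to the right of 0 without stimulation and to the left with LPS+ATP, and Odc1 lies near 0.6 in both states.

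Whether the response to LPS+ATP differed between genotypes was tested by the interaction of genotype and stimulation. It was negative, a smaller rise in Nlrp3-/- BMDMs, and past the adjusted p for 7 of the 9 genes, where 27.7% of all tested genes passed in either direction. For 4 genes the interaction was also at least 1 in size, against 1.43% of all tested genes in that direction and 0.721% in the opposite one. These were Arg1 at -2.35 (SE 0.0735, limma adjusted p = 7.49e-09), Acod1 at -2.07 (adjusted p = 7.49e-09), Nos2 at -1.65 (adjusted p = 4.14e-07) and Slc7a2 at -1.39 (adjusted p = 0.00128). Arg2 at -0.89 (adjusted p = 9.50e-05), Ass1 at -0.85 (adjusted p = 1.23e-06) and Gch1 at -0.24 (adjusted p = 0.0283) were smaller. The value of Gch1 missed the threshold with a pseudocount of 0.1 (adjusted p = 0.158). For Arg2, Slc7a2 and Ass1 the stimulated levels of the genotypes did not differ past the test, and the unstimulated levels did. For Nos2 and Acod1 the genotypes differed in both states and in opposite directions. Asl and Odc1 had interactions of 0.06 (adjusted p = 0.753) and -0.03 (adjusted p = 0.753).

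Markers of other cell types moved with genotype as well. The summed level of 5 fibroblast markers (Col1a1, Col1a2, Col3a1, Dcn and Pdgfra) was 157 to 161 FPKM in wild-type and 1164 to 1180 FPKM in Nlrp3-/- libraries without stimulation, and 180.1 to 183 against 889.8 to 905 FPKM with LPS+ATP. All 5 were higher in Nlrp3-/- BMDMs by the limma test in both states, beside 33.3% and 35.9% of all tested genes. The summed level of 8 neutrophil and granulocyte precursor markers was 331 to 367 against 1782 to 1830.4 FPKM without stimulation. With LPS+ATP it was 328 to 342 against 703 to 711 FPKM. Of the 7 that were tested, 7 were higher in Nlrp3-/- BMDMs without stimulation and 6 with LPS+ATP, beside 33.3% and 35.9% of all tested genes. With LPS+ATP 6 of the 7 fell in each genotype. Lcn2 rose, from a mean of 9.96 to 218 FPKM in wild-type and from 43.2 to 208 FPKM in Nlrp3-/- BMDMs. Lcn2 was thus the larger part of the stimulated wild-type sum. Macrophage markers were summed with both gene entries of Itgam, while the test used 1 entry. With LPS+ATP, 4 of the 7 were lower in Nlrp3-/- BMDMs by the test, beside 12.6% of all tested genes, and 3 did not pass. The sum of the 7 was then 10580 to 10829 FPKM against 11262 to 11335 FPKM. Without stimulation, 4 of the 7 were lower, beside 14.5% of all tested genes, and 3 did not pass. Cd68 was then 869 to 889 FPKM in Nlrp3-/- and 1424 to 1478 FPKM in wild-type libraries. The sum of the 7 was 18977 to 19222 FPKM against 19866 to 21046 FPKM. The sums for 3 dendritic cell, 4 lymphocyte and 3 erythroid markers were at most 0.512, 1.55 and 7.69 FPKM in any library. The part of these cells, and of donor sex, in the genotype differences of Arg1, Odc1, Nos2 and the other genes was not tested. Nnt, a mitochondrial gene that differs between C57BL/6 substrains, was 4.09 to 10.3 FPKM in wild-type and 0.670 to 1.47 FPKM in Nlrp3-/- libraries. Whether the genotypes also differed in substrain was not tested. Such a difference could not be told apart from genotype in these libraries.

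With LPS+ATP, Arg1 moved against the other tested markers of alternative activation, while between genotypes Chil3 went the same way as Arg1. Retnla was listed at 0 in all libraries. Chil3, Mrc1, Mgl2 and Clec10a all fell with LPS+ATP in both genotypes, while Arg1 rose. The log2 fold change of Mrc1, the mannose receptor gene, was -2.69 (limma adjusted p = 3.55e-13) in wild-type BMDMs. Without stimulation Chil3 was higher in Nlrp3-/- BMDMs (log2 fold change 0.82, adjusted p = 9.71e-08), as Arg1 was. Mrc1 (-0.60, adjusted p = 4.55e-07), Clec10a (-0.80, adjusted p = 0.000110) and Mgl2 (-0.22, adjusted p = 0.0399) were lower. Mgl2 passed the filter through the unstimulated wild-type libraries alone, at 1.04 to 1.45 FPKM, and Clec10a through the unstimulated libraries alone. The falls of both, and the genotype difference of Mgl2, carry that limit. With LPS+ATP Chil3 was 14.3 to 16.1 FPKM in Nlrp3-/- and 11.5 to 12.4 FPKM in wild-type libraries, and Arg1 was higher as well. By the test, 1 of the 4 markers was then higher, 1 lower and 2 not past it.

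Over the 12 libraries, the tested genes with the highest Pearson's r to Nos2 on the log2 scale were Tma16 (0.9997), Il1a (0.9994) and Cd69 (0.9992). Those closest to Acod1 were Ptgs2 (0.9995), Slco3a1 (0.9992) and Nrp2 (0.9992). Such values were common, as 263 genes had r above 0.99 with Nos2 and 191 with Acod1. Only 2 genes had r above 0.99 with Arg1, namely Glipr2 (0.997) and Asns (0.991), followed by Wfdc21 (0.989). Asns, the asparagine synthetase gene, had a mean of 7.37 FPKM without and 30.3 FPKM with LPS+ATP in wild-type BMDMs and of 23.7 and 36.1 FPKM in Nlrp3-/- BMDMs, the same order of groups as Arg1. The 12 points share 4 group means, so these values describe patterns over groups.

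Of 19 further genes of arginine transport and use, 11 were tested, and in wild-type BMDMs 2 were higher and 3 lower DEGs with LPS+ATP, beside 8.25% and 11.2% of all tested genes. Slc3a2, the heavy chain of amino acid transporters, rose by 1.66 (limma adjusted p = 6.64e-11), and Slc7a1, the constitutive arginine transporter (CAT1), by 1.14 (adjusted p = 1.14e-09). Gamt, an enzyme of creatine synthesis, changed by -1.52 (adjusted p = 1.26e-06) and Ddah2, which breaks down methylarginine inhibitors of nitric oxide synthase, by -1.42 (adjusted p = 3.11e-06). Oat, which moves ornithine toward proline, changed by -1.07 (adjusted p = 4.06e-09). In Nlrp3-/- BMDMs Slc3a2 rose by 1.30 (adjusted p = 8.15e-10), and Gamt and Ddah2 were the lower DEGs. The other nitric oxide synthase genes Nos1 and Nos3 were below 1 FPKM in every library, and the urea cycle genes Cps1 and Otc and the agmatinase gene Agmat were listed at 0 in all 12. Slc7a1 was named after its values were seen, as were Oat and the absent genes.

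Between genotypes, 2 of those 11 genes were higher DEGs in Nlrp3-/- BMDMs in each state, beside 6.02% of all tested genes without stimulation and 4.48% with LPS+ATP. Ddah1 was higher by 1.43 (limma adjusted p = 4.17e-08) without stimulation and 1.28 (adjusted p = 1.33e-07) with LPS+ATP. It was 0.340 to 0.955 FPKM in wild-type libraries and passed the filter through the Nlrp3-/- libraries alone. Azin2, an antizyme inhibitor related in sequence to ODC1, was higher by 1.15 (adjusted p = 8.35e-07) and 1.11 (adjusted p = 1.28e-06), the latter 0.99 under median-ratio scaling. Of 5 tested genes of proline metabolism, Pycr1 and Aldh18a1, which make proline, were the 2 DEGs in each state, beside the same shares of all tested genes. Pycr1 was higher by 1.55 (adjusted p = 2.87e-08) and 1.13 (adjusted p = 4.75e-07), and Aldh18a1 by 1.38 (adjusted p = 2.64e-08) and 1.14 (adjusted p = 1.59e-07, and 0.98 under median-ratio scaling). Pycr1 was 0.192 to 0.480 FPKM in wild-type libraries and also passed the filter through the Nlrp3-/- libraries alone. The counts of DEGs in these lists thus include genes that entered the test through the genotype where they are high. Fibroblast marker levels were higher in the same libraries, and their part was not tested.

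Of 14 tested polyamine genes, 11 fell and 2 rose with LPS+ATP in wild-type BMDMs, with a median of -0.50, beside 53.1%, 23.3% and a median of -0.26 over all tested genes, and 8 fell and 2 rose under median-ratio scaling (median -0.20). Sat1, which acetylates spermidine and spermine for breakdown or export, changed by -1.57 (limma adjusted p = 3.60e-12), and Paox, which oxidises the acetylated forms, by -1.71 (adjusted p = 5.19e-10). Both were also the lower DEGs in Nlrp3-/- BMDMs, at -1.39 (adjusted p = 1.31e-11) and -1.34 (adjusted p = 6.14e-09). Srm, the spermidine synthase gene, was higher in stimulated Nlrp3-/- BMDMs by 1.03 (adjusted p = 2.82e-06), and by 0.92 without replicate 1 of the stimulated wild-type group, below the limit for a DEG. Between genotypes with LPS+ATP, 4 of the 14 were higher, 2 lower and 8 not past the test, near the 35.9% and 12.6% of all tested genes, and 3 were higher and 6 lower under median-ratio scaling.

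Gch1 rose while the tested genes of the later steps of tetrahydrobiopterin did not. All 5 tested genes of that list fell in wild-type BMDMs with LPS+ATP, beside 53.1% of all tested genes, and 4 of the 5 fell under median-ratio scaling. Qdpr, which recycles the oxidised cofactor, changed by -1.52 (limma adjusted p = 0.000248) with unstimulated levels that ranged from 17.4 to 31.7 FPKM, and Pcbd2 by -1.23 (adjusted p = 5.95e-06, and -0.97 under median-ratio scaling). In Nlrp3-/- BMDMs 4 of the 5 fell, beside 53.8% of all tested genes, Pcbd2 by 1.05 on the log2 scale (adjusted p = 2.78e-05), and by 0.87 without replicate 2 of the stimulated group.

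Of 6 tested genes of the nitric oxide response and of NOS partners, 2 were lower DEGs with LPS+ATP in each genotype. Lower DEGs were 11.2% of all tested genes in wild-type and 8.21% in Nlrp3-/- BMDMs. Nostrin, known as a binding partner of endothelial nitric oxide synthase, changed by -2.40 (limma adjusted p = 2.30e-10) in wild-type and -2.03 (adjusted p = 1.47e-09) in Nlrp3-/- BMDMs. Calm2, a calmodulin gene, changed by -1.02 (adjusted p = 1.36e-06) in wild-type BMDMs, and by -0.93 to -1.11 when each library was left out in turn, with the limit missed without replicate 1 of the unstimulated group or replicate 1 or 2 of the stimulated group. Gucy1b1, a subunit of the nitric oxide receptor guanylate cyclase, changed in opposite directions. It went from 1.09 ± 0.0923 FPKM (SD, n = 3) to 2.54 ± 0.170 FPKM (SD, n = 3) in wild-type and from 4.65 ± 0.519 FPKM (SD, n = 3) to 1.71 ± 0.124 FPKM (SD, n = 3) in Nlrp3-/- BMDMs. Its genotype difference without stimulation was 1.43 (adjusted p = 2.76e-08). Its fall in Nlrp3-/- BMDMs was 1.05 on the log2 scale (adjusted p = 1.46e-07), and 0.98 without replicate 1 of the unstimulated group.

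Of 11 tested genes of itaconate supply, transport and breakdown, 8 fell and 1 rose in wild-type BMDMs with LPS+ATP, beside 53.1% and 23.3% of all tested genes, and 5 fell and 4 rose under median-ratio scaling. The gene that rose in both was Rab32, a small GTPase known to bring itaconate to vacuoles that hold bacteria. Its log2 fold change was 1.77 (limma adjusted p = 1.29e-12) in wild-type and 1.92 (adjusted p = 8.37e-13) in Nlrp3-/- BMDMs. The Krebs cycle gene Suclg2 changed by -1.27 (adjusted p = 2.32e-09) in wild-type BMDMs. Acat1, a mitochondrial thiolase gene, changed by -1.49 (adjusted p = 1.06e-08) in wild-type and -1.05 (adjusted p = 3.00e-07) in Nlrp3-/- BMDMs, the latter -0.99 without replicate 1 of the unstimulated group. Between genotypes 4 of the 11 were higher in Nlrp3-/- BMDMs without stimulation and 7 with LPS+ATP, beside 33.3% and 35.9% of all tested genes, each by less than the limit for a DEG. Under median-ratio scaling none was higher and 3 were lower without stimulation, and 3 were higher and 3 lower with LPS+ATP.

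Among 11 tested transcription factors known to act on Nos2, Arg1 or Acod1, Cebpb and Irf1 were higher DEGs with LPS+ATP in each genotype. Of all tested genes, 8.25% were higher DEGs in wild-type and 6.64% in Nlrp3-/- BMDMs. Cebpb rose by 2.41 (limma adjusted p = 8.32e-14) in wild-type and 1.63 (adjusted p = 2.61e-12) in Nlrp3-/- BMDMs. Irf1 rose by 2.74 (adjusted p = 6.53e-07) and 1.89 (adjusted p = 1.84e-05), with stimulated wild-type libraries as far apart as 64.9 and 112 FPKM. Between genotypes, Hif1a was higher in unstimulated Nlrp3-/- BMDMs by 1.22 (adjusted p = 4.02e-09) and Klf4 by 1.11 (adjusted p = 3.39e-07, and 0.96 under median-ratio scaling). Those were the 2 DEGs of the 11 in that state, where 6.02% of all tested genes were higher DEGs. With LPS+ATP Myc was the 1 DEG of the 11, higher by 1.20 (adjusted p = 9.52e-07), beside 4.48% of all tested genes.

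**Figure D5:**
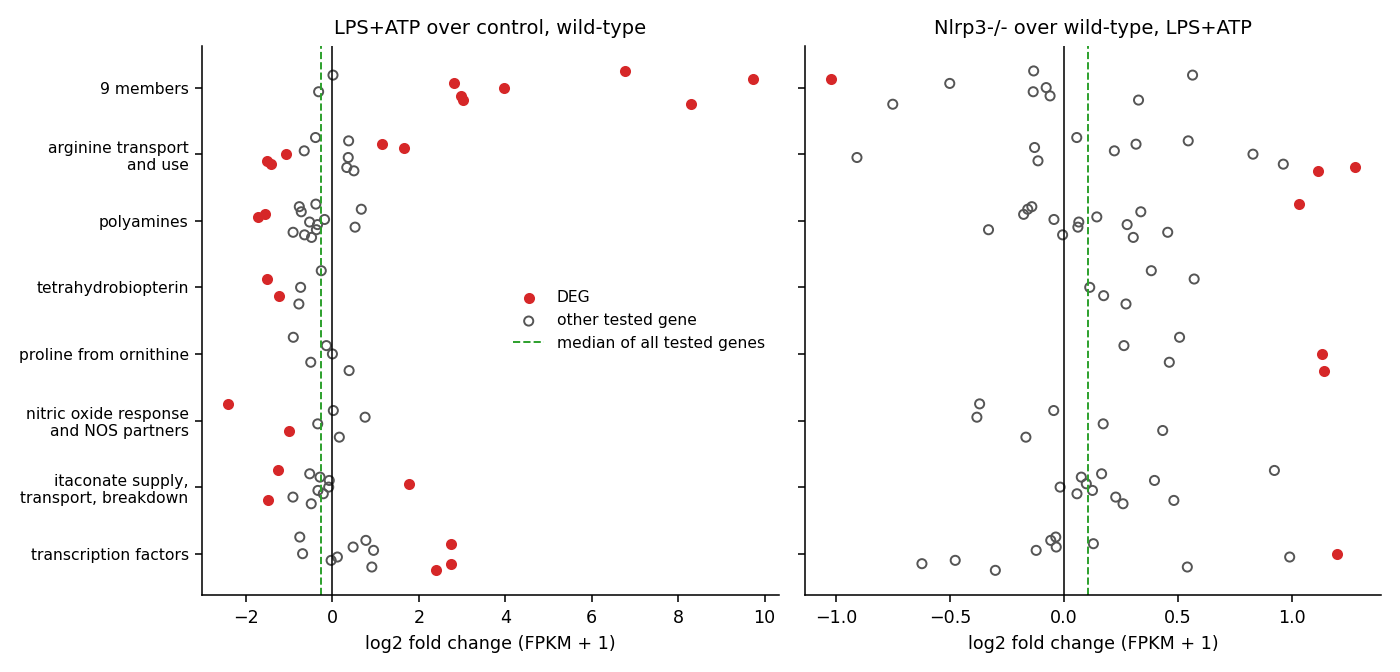
Log2 fold change of the 9 genes and of the tested genes of the 7 related lists, for LPS+ATP over control in wild-type BMDMs (left) and Nlrp3-/- over wild-type with LPS+ATP (right), with filled points for DEGs and a dashed line at the median of all tested genes (-0.26 and 0.11). On the left 7 of the 9 genes lie beyond 2.8, and of the listed genes Irf1 reached 2.74.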

How the data were processed

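Total RNA of the 12 BMDM libraries was extracted with Trizol and prepared with an Illumina TruSeq kit. The authors deposited a single table of FPKM, made from the reads of each library, with no scaling between libraries stated. The aligner, the counter, the annotation and the strand setting are not given in the sources used here. The submitters' processing notes list GRCm39 and DESeq2 1.24.0 without a role. FPKM gives no depth in reads. The smallest steps in the low values put the deepest library at 1.22 times the shallowest, between 21122 and 22613 genes were above 0 in a library, and Pearson's r was 0.990 to 0.993 within groups and 0.816 to 0.965 between groups.

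Since FPKM is not a count, log2(FPKM + 1) was tested in a single limma 3.58.1 fit of the 4 group means (R 4.3.3), with a trend in the variance and Benjamini-Hochberg adjustment over 12622 of 55335 genes. All groups shared the estimate of the spread. The 9 genes, the related lists and the markers were chosen with earlier results of these data known. All 9 genes were named, with up to 3 DEGs of largest change per related list and comparison, the 3 genes of highest r to Nos2, Arg1 and Acod1, Nlrp3 and cell type markers. A gene of the transcription factor list is not reported here. Older symbols were matched through RefSeq synonyms. Gene overlaps came from GENCODE M21 (GRCm38), and near copies from blastn 2.17.0+, with 95% identity and 20% of the longest transcript as the minimum. Since builds differ, only chromosomes are given for the 9 genes. Replicate numbers did not pair the libraries. The alternatives were the replicate number as a block, leaving out each library, fitting the compared groups alone or without the trend, no filter or one of 5 FPKM, a pseudocount of 0.1, and scaling to TPM, median ratios or upper quartiles. Python 3.11.15 with pandas 2.3.3, numpy 2.4.6 and matplotlib 3.10.9 made the tables and plots.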

Additional observations from a re-analysis of the deposited data

Results flagged for a closer look

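The response to LPS+ATP differed between wild-type and Nlrp3-/- BMDMs for 5 of the genes named, by limma's test of the interaction with a size of at least 1 on the log2 scale. The interaction was -2.35 for Arg1, -2.07 for Acod1, -1.65 for Nos2 and -1.39 for Slc7a2, and each rose in both genotypes. It was -1.81 for Gucy1b1 (adjusted p = 5.95e-07), which rose in wild-type and fell in Nlrp3-/- BMDMs. For Slc7a2 the interaction ran from -1.13 to -1.55 when each library was left out. With 3 libraries per group, no library was tested for standing apart from its group.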

How the results depend on the processing

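For the 9 genes in 5 comparisons, 45 fold changes had 720 values under the alternatives, of which 705 kept their direction and their side of the limits for a DEG. The count of the 9 genes that were DEGs stayed at 7, 6 and 1 under every alternative for stimulation in wild-type, stimulation in Nlrp3-/- and genotype with LPS+ATP. For the interaction it was 4, but 5 with a pseudocount of 0.1 and 5 with TPM. For genotype without stimulation it was 3, but 5 with a pseudocount of 0.1 and 5 with TPM, and 2 to 3 when each library was left out. Nos2 (1.71 and 1.23) and Arg2 (1.22 and 1.11) passed the limit under those 2 settings, as did the interaction of Arg2 (-1.28 and -1.15). The fold change of Odc1 with LPS+ATP in Nlrp3-/- BMDMs turned positive with TPM (0.041), median-ratio (0.26) and upper-quartile scaling (0.10) and without replicate 1 of the unstimulated (0.007) or replicate 2 of the stimulated group (0.002), in a range of -0.064 to 0.007 when each library was left out. In wild-type BMDMs it was -0.014 without replicate 2 of the unstimulated group, in a range of -0.014 to 0.043. The interaction of Asl turned to -0.003 without replicate 2 of the unstimulated and -0.017 without replicate 2 of the stimulated wild-type group, in a range of -0.017 to 0.104. The cause was not tested. Same-numbered libraries had correlations of deviations from -0.057 to 0.053, so the numbers were not taken as pairs, and with the replicate block the 9 genes gave 7, 6, 3, 1 and 4 DEGs.

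Over all tested genes, DEGs numbered 2452, 1874, 847, 637 and 271 in the 5 comparisons, and 3702, 2847, 1428, 1406 and 634 with a pseudocount of 0.1. TPM gave 1285, 1175 and 501 in the last 3, and a filter of 5 FPKM gave 515 and 189 for genotype without stimulation and the interaction. Median-ratio scaling moved the median of all genes by 0.25 and 0.23 for stimulation and by -0.12 and -0.15 for genotype. The share of DEGs that were higher moved with it from 42.5% to 61.5% and from 44.7% to 64.4% for stimulation in wild-type and Nlrp3-/- BMDMs, with 52.9% under upper-quartile scaling in wild-type BMDMs. FPKM leaves the precision of low levels, such as Nos2 without stimulation, unknown.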
